A study of Caenorhabditis elegans with 26 samples.

Results

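AEF149 is a Caenorhabditis elegans strain in which an extrachromosomal array, ssrEx1193, adds flp-17 fused to GFP behind the flp-17 promoter, with myo-3p::mCherry as the marker of the array. Its 5 whole-animal libraries were set against the 6 libraries of the control strain AEF231, 11 of the 26 libraries of the series, for every gene that could be tested. Both strains hold zcIs4[hsp-4p::GFP]V, which reports stress of the endoplasmic reticulum (ER) through the unfolded protein response. AEF149 has the background of SJ4005 without outcrossing, whereas AEF231 is SJ4005 after 6 crosses to the wild type N2, so that the array and the background cannot be told apart. 2 more strains served as points of comparison. AEF373 (n = 5) has an array with flp-17p::FLP-17 and the flp-17 3' untranslated region, marked by unc-122p::mCherry in coelomocytes, in the AEF231 background. AEF276 (n = 5) has the loss-of-function allele flp-17(n4894) in the AEF231 background with the same reporter and no array. AEF149 and AEF373 animals were sorted for the red marker 24 h before collection, AEF231 animals were washed and replated at that time, and AEF276 animals were not sorted. Array and sorting therefore cannot be told apart either. Extrachromosomal arrays hold many copies of the injected DNA and are lost from some cells, and each array strain is 1 line.

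FLP-17 is an FMRFamide-like neuropeptide of the BAG neurons, a pair of head sensory neurons that respond to carbon dioxide and oxygen. Together with FLP-10 it acts through the G protein-coupled receptor EGL-6 to inhibit egg laying. Neuropeptides are cut from precursors and amidated in dense core vesicles and released by a machinery that many neurons share. In the hermaphrodite, sperm are made during larval life and used up in adulthood, the adult cuticle is secreted by the epidermis at the last moult, and the intestine makes yolk.

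Poly(A) RNA of day 1 adults, 200 to 500 animals a sample, was read as counts per gene. Library totals lay between 10401539 and 13490028 counts in AEF149 and between 10557827 and 12417322 in AEF231. All AEF149 libraries were made in batch 1, and AEF231 replicates 5 and 6 in batch 2, which entered the fit as a term. Values below are CPM, counts scaled to the size of the library, on the scale of the fit, and changes are log2 fold changes of AEF149 over the other strain with their standard errors (SE). Since the labels do not say that each replicate was its own culture, a p-value is relative to the spread among the libraries at hand. Of 13315 genes tested, 867 were higher and 1467 lower in AEF149 than in AEF231 at an edgeR adjusted p below 0.05, which is 6.51% and 11% of them. The median change of all genes was -0.01. At 2-fold or more the shares were 2.17% higher and 3.05% lower, and for 12.7% of genes no AEF149 library overlapped any AEF231 library. The same fit called 13.2% of genes higher and 19% lower than in AEF373, and 9.58% higher and 14.9% lower than in AEF276; these comparisons share the AEF149 libraries. Another scaling, by the upper quartile, gave 1528 higher and 505 lower than in AEF276, against 1276 and 1980 with the scaling used, and 1228 higher and 2813 lower than in AEF373, against 1764 and 2535. The DESeq2 size factors gave 1339 higher and 1380 lower than in AEF276. Without AEF276 replicate 2 or 3 the count lower than in AEF276 was 608 or 982. On the second principal component, which held 19.97% of the variance of 26 libraries, AEF149 libraries lay between -15.7 and -11.1 and AEF231 libraries between 5.605 and 14.8, with AEF231 replicates 5 and 6 farthest from AEF149.

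**Figure D1:**
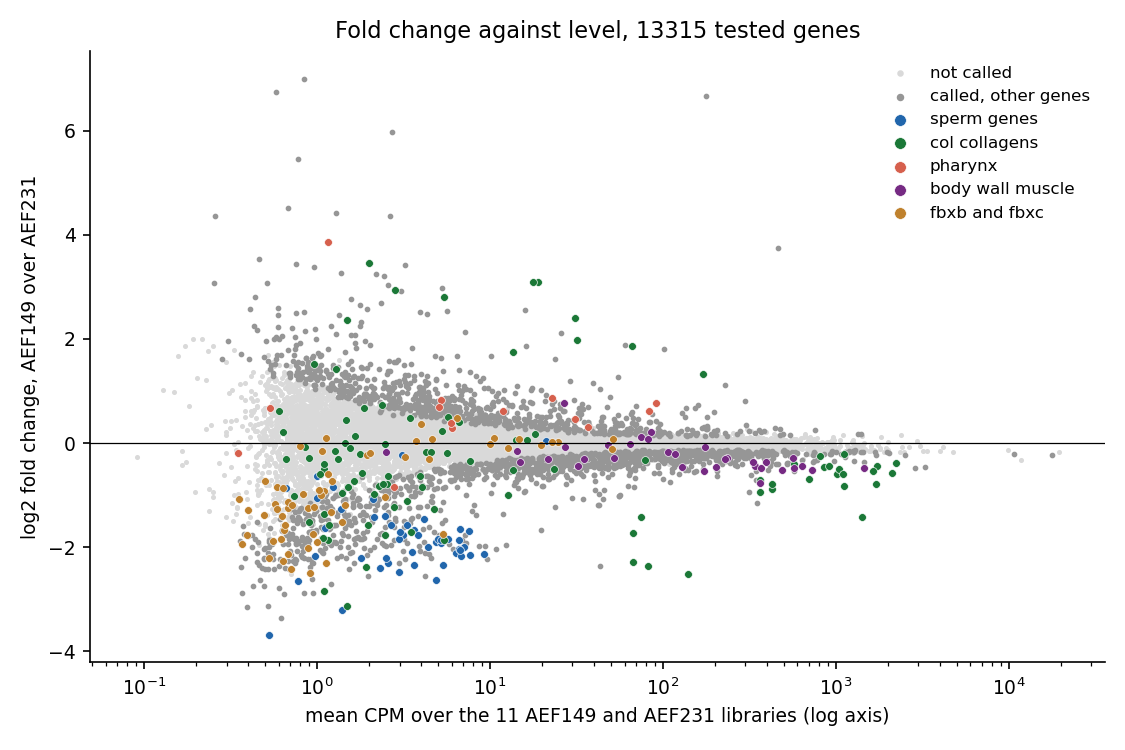
Log2 fold change of AEF149 over AEF231 (vertical axis) for 13315 tested genes by mean CPM over the 11 libraries (horizontal axis, log scale). Dark grey points are genes called at an edgeR adjusted p below 0.05, light grey points the others, and coloured points 5 sets of genes whether called or not; sperm and fbxb and fbxc genes lie below 0 at low levels, and body wall muscle genes mostly below 0 at high levels.

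The gene that the array carries was the first check of the labels. flp-17 lies on chromosome IV between 17190204 and 17191891 in WBcel235, as WBGene00001460. It was read at 409, 381, 387, 409 and 353 CPM in the 5 AEF149 libraries, against 2.18 to 5.56 CPM with a median of 3.90 in the 6 AEF231 libraries. Every AEF149 library lay far above every AEF231 library, at 101 times the level (log2 fold change 6.66 ± 0.15, edgeR adjusted p = 1.68e-19). An exact permutation test (two-sided) on log2(CPM + 0.5) gave p = 0.00216 over 462 splits, the smallest they allow. Against AEF373, the other strain whose array has the flp-17 promoter, the range in AEF149 lay above that of 262 to 332 CPM, and the change was 0.37 ± 0.11 (edgeR adjusted p = 0.0116). Reads of the array and of the chromosomal gene carry the same symbol. A symbol gfp, which the reporter and the AEF149 array could each feed, was read at 1012, 936, 947, 958 and 833 CPM in AEF149, against 54.9 to 80.7 CPM with a median of 68.5 in AEF231. The AEF149 values were all at least 10 times those of AEF231, and AEF373, whose array is not tagged, was at 110.4 to 152.2 CPM.

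The promoter genes of the reporter and of the marker moved little. hsp-4, the ER chaperone BiP whose promoter drives the reporter, was read at 541, 547, 518, 493.4 and 529 CPM in AEF149, against 428 to 509.6 CPM with a median of 465 in AEF231. The ranges overlapped, and the change of 0.17 ± 0.06 was at the edge of the threshold (edgeR adjusted p = 0.0492). It missed the threshold when any of AEF231 replicates 1 and 2 or AEF149 replicates 1, 2, 3 and 5 was left out, with adjusted p between 0.0648 and 0.115. Within batch 1 the change of hsp-4 was 0.21 (edgeR adjusted p = 0.0167). The muscle myosin gene myo-3, whose promoter drives the marker, was read at 82.2, 94.0, 83.4, 91.1 and 88.98 CPM in AEF149 and at 63.6 to 103.6 CPM with a median of 81.2 in AEF231. Its libraries overlapped too, with a change of 0.20 ± 0.08 (edgeR adjusted p = 0.102). Within batch 1 the change of myo-3 was 0.26 (edgeR adjusted p = 0.00961). In AEF373, without a myo-3 promoter in its array, myo-3 stood at 121 to 154 CPM, above every AEF149 library (change of AEF149 over AEF373 -0.52 ± 0.09, edgeR adjusted p = 3.22e-05).

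**Figure D2:**
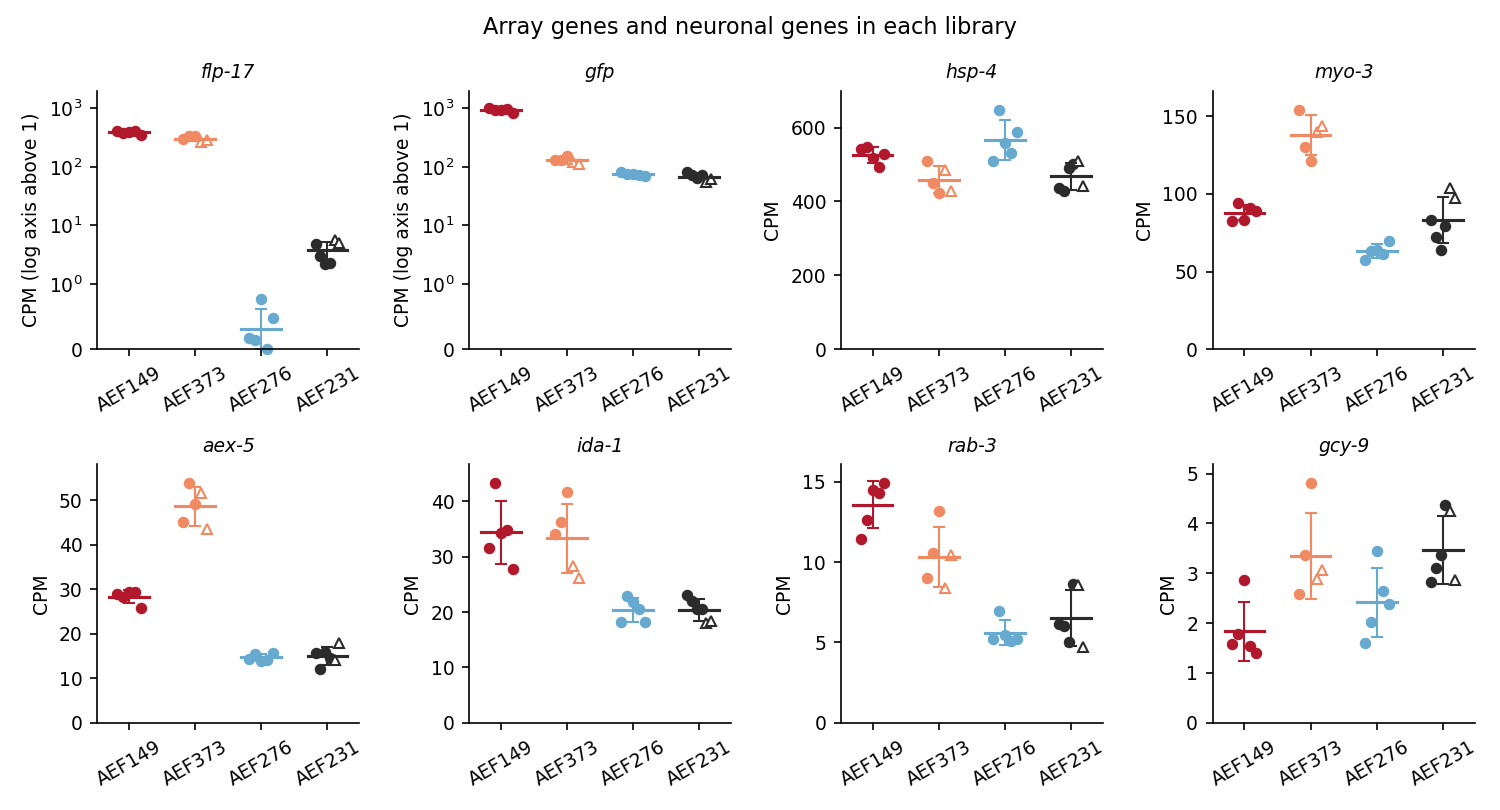
CPM of 8 genes in each library of AEF149, AEF373, AEF276 and AEF231, from left to right. Filled circles are batch 1 and open triangles batch 2, bars are means and error bars SD. High levels of flp-17 are seen in both AEF149 and AEF373, and gfp stands apart in AEF149. Between AEF149 and AEF231, hsp-4 and myo-3 overlap, and aex-5, ida-1 and rab-3 are higher in AEF149.

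Few other genes of the BAG neurons changed. Of 10 tested members of the list, 2 were higher and 1 lower, and flp-17 was 1 of the 2; over all genes tested the shares were 6.51% higher and 11% lower. gcy-9, the receptor guanylate cyclase for carbon dioxide, was read at 1.57, 1.78, 2.86, 1.54 and 1.40 CPM in AEF149, against 2.82 to 4.37 CPM with a median of 3.23 in AEF231. Replicate 3 of AEF149 reached into the AEF231 range and the other 4 lay below it (change -0.86 ± 0.25, edgeR adjusted p = 0.0105). The phosphodiesterase gene pde-1, which is also used outside BAG, was read at 3.65, 6.17, 6.35, 6.89 and 5.32 CPM in AEF149 and at 2.07 to 4.94 CPM with a median of 3.25 in AEF231. It was higher by 0.78 ± 0.19 (edgeR adjusted p = 0.0027), although the groups overlapped. flp-10, which encodes the partner of FLP-17 on EGL-6, averaged 7.77 ± 2.28 CPM in AEF149 and 7.66 ± 1.04 CPM in AEF231 (SD, n = 5 and 6; change -0.02 ± 0.15, edgeR adjusted p = 0.949). gcy-31, a soluble guanylate cyclase that senses oxygen, averaged under 1 CPM in both strains, at 0.487 in AEF149 and 0.477 in AEF231.

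The receptor gene egl-6 averaged 5.63 ± 0.546 CPM in AEF149 and 5.85 ± 1.29 CPM in AEF231 (change 0.07 ± 0.17, edgeR adjusted p = 0.848), and the sign of so small a value depended on the setting. Among 20 tested genes of the egg-laying circuit, 3 were higher and 1 lower (15% and 5%, against 6.51% and 11% of all genes). egl-2, an EAG-type potassium channel, was read at 3.36, 4.09, 2.86, 4.62 and 3.75 CPM in AEF149, against 1.18 to 2.36 CPM with a median of 1.68 in AEF231. The groups did not overlap (change 1.004 ± 0.24, edgeR adjusted p = 0.00175). unc-103, an ERG-type potassium channel that holds back egg laying and mating muscles, changed by 0.48 ± 0.14 (edgeR adjusted p = 0.00955) with overlapping libraries. dgk-1, the diacylglycerol kinase that opposes transmitter release, changed by 0.61 ± 0.19 (edgeR adjusted p = 0.0187) with overlapping libraries, and missed the threshold without AEF231 replicate 2 or 4 or AEF149 replicate 2 or 4, with adjusted p between 0.0626 and 0.092. bas-1, the aromatic amino acid decarboxylase of serotonin and dopamine synthesis, was the gene that fell, at 14.9, 15.2, 15.9, 13.5 and 14.6 CPM in AEF149 and 19.2 to 25.1 CPM with a median of 21.4 in AEF231. Each AEF149 library lay below each AEF231 library (change -0.46 ± 0.09, edgeR adjusted p = 0.000215).

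Genes that process and release neuropeptides were higher where they changed. Of 16 tested, 10 were higher and 0 lower than in AEF231 (62.5% and 0%, against 6.51% and 11% of all genes). The median change was 0.35, against -0.01 for all genes. aex-5 (WBGene00000088, chromosome I, 14850052 to 14855827, minus strand), a proprotein convertase of the kexin family, had the largest change among them, with 29.05, 28.2, 29.4, 29.3 and 25.8 CPM in AEF149 against 12.03 to 17.96 CPM, median 15.2, in AEF231. All AEF149 libraries were above all AEF231 libraries (change 0.92 ± 0.09, edgeR adjusted p = 4.12e-11). AEF373 was higher still, at 43.5 to 53.9 CPM (AEF149 over AEF373 -0.77 ± 0.08, edgeR adjusted p = 6.39e-10). ida-1, the dense core vesicle protein related to IA-2, was read at 31.6, 43.3, 34.3, 34.9 and 27.7 CPM in AEF149 and at 17.97 to 23.2 CPM, median 20.6, in AEF231. Its groups were separate (change 0.62 ± 0.10, edgeR adjusted p = 4.55e-06).

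The convertase egl-3, its chaperone sbt-1 of the 7B2 family and the carboxypeptidase egl-21 form one path of precursor cleavage. sbt-1 was read at 32.8, 28.9, 26.7, 32.6 and 29.5 CPM in AEF149, against 17.6 to 21.8 CPM with a median of 20.5 in AEF231. No library of the 2 strains overlapped, and the change was 0.53 ± 0.09 (edgeR adjusted p = 1.67e-05). The changes of egl-3 and egl-21 were 0.38 ± 0.07 and 0.33 ± 0.08 (edgeR adjusted p = 9.45e-05 and 0.00215), again with no overlap. The amidating enzymes pghm-1 and pgal-1 rose by 0.47 ± 0.11 and 0.29 ± 0.08 (edgeR adjusted p = 0.00195 and 0.00865). unc-31, the CAPS protein required for dense core vesicle release, changed by 0.86 ± 0.17 (edgeR adjusted p = 0.000157). cab-1, a neuronal protein that interacts with the exocytosis protein AEX-3, changed by 0.38 ± 0.08 (edgeR adjusted p = 0.000968) with overlapping libraries. The smallest margin was that of aex-6, the RAB27 GTPase, whose change of 0.60 ± 0.19 (edgeR adjusted p = 0.0185) missed the threshold without AEF231 replicate 1 or 3 or AEF149 replicate 2, with adjusted p between 0.0543 and 0.0681. Set against AEF276, where 9.58% of all genes were higher and 14.9% lower, the list gave 10 higher and 1 lower with a median of 0.42. Set against AEF373, where 13.2% were higher and 19% lower, it gave 0 higher and 3 lower with a median of -0.03. With upper quartile scaling the 3 lower than in AEF373 were 5.

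Synaptic genes of neurons in general also changed in the upward direction. Of 23 tested, 6 were higher and 0 lower (26.1% and 0%, against 6.51% and 11% of all genes). The 6 became 10 without AEF231 replicate 6 and 12 without the batch term. cpx-1, the complexin that clamps vesicle fusion, was read at 7.58, 10.8, 11.98, 12.33 and 8.64 CPM in AEF149, against 4.81 to 6.40 CPM with a median of 5.75 in AEF231. The groups were separate (change 0.84 ± 0.16, edgeR adjusted p = 0.000159), and cpx-1 also exceeded AEF373 by 0.67 ± 0.17 and AEF276 by 1.14 ± 0.17 (edgeR adjusted p = 0.00221 and 2.42e-06). rab-3, the synaptic vesicle GTPase, was read at 11.45, 12.63, 14.5, 14.3 and 14.9 CPM in AEF149 and at 4.72 to 8.65 CPM with a median of 6.07 in AEF231. Again no library overlapped (edgeR adjusted p = 7.02e-07). The calcium sensor snt-1 and the active zone protein unc-10 rose by 0.81 ± 0.16 and 0.55 ± 0.14 (edgeR adjusted p = 0.000209 and 0.00492). The summed level of 13 neuronal marker genes was 342 to 378 CPM in AEF149 and 295 to 334 CPM in AEF231, with no marker at 0; in whole animals more cells of a type and more RNA per cell cannot be told apart.

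Among 30 tested FMRFamide-like peptide genes, flp-17 included, 8 were higher and 0 lower (26.7% and 0%, against 6.51% and 11% of all genes). The 8 became 5 without AEF231 replicate 3 or AEF149 replicate 4. flp-9 was read at 13.5, 10.5, 10.8, 12.4 and 11.7 CPM in AEF149, against 7.42 to 9.70 CPM with a median of 8.42 in AEF231, and no library overlapped (edgeR adjusted p = 0.00519). flp-14, which is made in many neurons, changed by 0.60 ± 0.16 (edgeR adjusted p = 0.00716) with overlapping libraries. The 57 tested genes of neuropeptide-like proteins were mixed, with 7 higher and 3 lower; the 7 became 11 without AEF231 replicate 2. nlp-51 was read at 5.58, 6.24, 4.997, 6.80 and 3.84 CPM in AEF149 and at 1.096 to 2.82 CPM with a median of 2.29 in AEF231, with the groups apart (change 1.28 ± 0.22, edgeR adjusted p = 2.24e-05). nlp-24, of an epidermal antimicrobial group, went the other way by -0.61 ± 0.14 (edgeR adjusted p = 0.00306). The insulin-like gene ins-17 rose by 0.72 ± 0.19 (edgeR adjusted p = 0.0046). Against AEF276, 17 flp genes were higher and 0 lower, or 56.7% higher beside 9.58% of all genes. Against AEF373, 3 were higher and 0 lower, or 10% higher beside 13.2% of all genes.

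Sperm genes were low in AEF149. All 27 tested genes of major sperm proteins, the cytoskeletal proteins that sperm crawl with, were lower than in AEF231, with a median change of -2.03. Of 21 other sperm genes tested, 15 were lower and 0 higher (71.4% lower, against 11% of all genes), with a median of -1.57. msp-152 (WBGene00003470, chromosome II, 4933027 to 4933410, plus strand) was read at 1.86, 1.19, 1.82, 1.90 and 2.01 CPM in AEF149, against 7.27 to 17.03 CPM with a median of 9.24 in AEF231. No AEF149 library reached an AEF231 library (change -2.16 ± 0.23, edgeR adjusted p = 4.5e-09). The msp genes are near-identical copies that share reads, so that single members are uncertain and the list does not hold that many independent measurements. sss-1, a sperm-specific gene, was read at 2.36, 1.56, 0.872, 1.54 and 2.27 CPM in AEF149 and at 5.32 to 11.2 CPM with a median of 7.66 in AEF231. Its groups lay apart (change -1.86 ± 0.25, edgeR adjusted p = 8.93e-07), and ssp-10 and nspd-2 behaved alike at -1.72 ± 0.29 and -1.57 ± 0.27 (edgeR adjusted p = 1.62e-05 and 2.54e-05). alg-3, the Argonaute of small RNAs in sperm development, changed by -1.41 ± 0.34 (edgeR adjusted p = 0.00222).

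Sperm genes were also lower in AEF149 than in AEF373, while the msp calls against AEF276 were in the other direction. Against AEF373, 26 of 27 msp genes and 14 of 21 other sperm genes were lower in AEF149, and within the batch 1 libraries 16 and 7. Against AEF276, 15 msp genes were higher and 0 lower; without 1 library this count was between 4 and 17, at or below 8 without AEF276 replicate 1, 2 or 4 or AEF149 replicate 1, 4 or 5, and without the batch term it was 0. nspd-2 averaged 1.18 ± 0.339 CPM in AEF149, 4.43 ± 3.68 in AEF373, 0.276 ± 0.169 in AEF276 and 5.10 ± 2.204 in AEF231. It was higher in AEF149 than in AEF276 by 2.02 ± 0.41 (edgeR adjusted p = 0.00042). The summed level of 6 sperm marker genes was 3.49 to 6.89 CPM in AEF149 and 14.5 to 29.9 CPM in AEF231, with no marker at 0. Among AEF231 libraries, replicates 5 and 6 of batch 2 were the highest for msp-49, and within batch 1 the msp-49 change was -2.65.

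Female germ line genes did not move with the sperm genes. Of 35 tested oocyte and eggshell genes, 2 were higher and 0 lower than in AEF231 (median 0.05). That is 5.71% higher, near the 6.51% of all genes, and 0% lower, against 11%. The 2 lay between 1 and 5 without 1 library, with 5 without AEF231 replicate 5. Set against AEF373 the same list had 19 higher and 0 lower (54.3% higher, against 13.2% of all genes, median 0.16). The 19 became 0 when tested against a 1.2-fold change. Set against AEF276 the list had 0 higher and 20 lower (57.1% lower, against 14.9% of all genes, median -0.16). The count of lower genes in that comparison depended on the scaling. Among 18 tested sex determination genes, 3 were lower and 1, fem-3, higher, at 0.15 (edgeR adjusted p = 0.0424). That is 16.7% and 5.56%, beside 11% and 6.51% of all genes. Without 1 library the count of higher genes in this list lay between 0 and 2. The 3 lower were fbf-1 and fbf-2, the near-identical PUF proteins that control the switch from sperm to oocytes, and the calpain tra-3. fbf-2 was read at 20.2, 17.3, 18.6, 17.5 and 20.9 CPM in AEF149, against 22.6 to 29.3 CPM with a median of 26.1 in AEF231. The groups did not overlap (change -0.42 ± 0.09, edgeR adjusted p = 0.000443), while fbf-1 and tra-3 changed by -0.35 ± 0.09 and -0.28 ± 0.07 (edgeR adjusted p = 0.00269 and 0.00241). Of 28 tested P granule and meiosis genes, 2 were higher and 3 lower, close to the shares of all genes; the 2 became 1 without AEF149 replicate 1 or 3, and the 3 became 1 without AEF231 replicate 3 or 5 or AEF149 replicate 4. Among them, pgl-3 changed by 0.35 ± 0.06 and the helicase glh-1 by -0.37 ± 0.08 (edgeR adjusted p = 2.15e-05 and 0.00137). ppw-2, a germ line Argonaute, was read at 97.9, 107.1, 93.3, 93.9 and 98.9 CPM in AEF149, against 121.5 to 157 CPM with a median of 132 in AEF231. Each AEF149 library was below each AEF231 library (change -0.40 ± 0.06, edgeR adjusted p = 2.85e-06).

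Families of F-box and MATH domain proteins, which are thought to bring substrates to ubiquitin ligases and are expanded in nematodes, changed in opposite directions. Of 60 tested fbxb and fbxc genes, 22 were lower and 1 higher, or 36.7% and 1.67% against 11% and 6.51% of all genes (median -1.05). Few were well read: with only genes of at least 2 CPM on average the number lower was 2, and with only the compared strains in the fit it was 11. Of 89 tested fbxa genes, 13 were higher and 1 lower, or 14.6% and 1.12% (median 0.15). Of 50 math and bath genes, which encode MATH domain proteins, 6 were higher and 0 lower, or 12% and 0%. Close copies in these families can share reads. fbxc-51 was read at 2.72, 2.67, 1.82, 3.45 and 2.09 CPM in AEF149, against 5.03 to 11.02 CPM with a median of 7.16 in AEF231. The AEF149 libraries were below all AEF231 libraries (change -1.75 ± 0.18, edgeR adjusted p = 1.36e-09), and the gap to AEF373, at 13.5 to 24.4 CPM, was wider (-3.10 ± 0.18, edgeR adjusted p = 2.55e-17).

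fbxa-24 (WBGene00018803, chromosome II, 3816526 to 3818238, plus strand) was read at 8.73, 10.99, 11.9, 9.52 and 9.68 CPM in AEF149, against 0.506 to 1.91 CPM with a median of 1.33 in AEF231. It was among the 12 largest rises of well read genes (change 2.97 ± 0.25, edgeR adjusted p = 5.43e-12), and exceeded AEF373 by 1.49 ± 0.24 and AEF276 by 2.65 ± 0.25 (edgeR adjusted p = 5.69e-06 and 7.6e-11). fbxa-192 and fbxa-170 rose by 1.29 ± 0.14 and 0.49 ± 0.09 (edgeR adjusted p = 3.36e-09 and 8.43e-05). The MATH domain gene math-41 was read at 8.73, 11.37, 11.104, 7.80 and 8.90 CPM in AEF149 and at 3.77 to 5.61 CPM with a median of 4.71 in AEF231, with no overlap (change 1.01 ± 0.15, edgeR adjusted p = 2.77e-06). bath-24, another MATH domain gene, rose by 0.83 ± 0.17 with overlapping libraries (edgeR adjusted p = 0.000213). btb genes were not in the list of math and bath genes. fbxb-41 and btb-11, a BTB domain gene, which lie on the left arm of chromosome II like fbxc-51 and fbxc-28, fell by 2.304 and 1.82 on the log2 scale (edgeR adjusted p = 5.03e-06 and 2.65e-06), and fbxc-28 by 1.04 (edgeR adjusted p = 0.00402). fbxb-41 was named after its values were seen.

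Cuticle genes moved in both directions. Of 98 tested col genes, which encode the collagens of the cuticle, 35 were lower and 13 higher, with a median of -0.49. That is 35.7% and 13.3%, against 11% and 6.51% of all genes. col-124 was read at 751, 639.9, 627, 738 and 639.5 CPM in AEF149, against 1522 to 2908 CPM with a median of 1909 in AEF231. Its ranges were far apart (change -1.42 ± 0.10, edgeR adjusted p = 5.26e-11), and the level in AEF149 was also below AEF373 and AEF276 (-1.13 ± 0.10 and -0.93 ± 0.10, edgeR adjusted p = 4.2e-09 and 1.45e-07). col-19, the adult-specific collagen regulated by the heterochronic pathway, was read at 806, 709, 717, 853 and 687 CPM in AEF149 and at 1187 to 1827 CPM with a median of 1371 in AEF231. The groups were separate (change -0.83 ± 0.07, edgeR adjusted p = 7.19e-11). col-20 and col-179 changed by -0.79 ± 0.07 and -0.71 ± 0.06 (edgeR adjusted p = 1.21e-10 and 3.91e-11).

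col-139 and col-81 were among the 12 largest falls of well read genes. col-139 was read at 25.2, 13.97, 11.104, 19.1 and 22.4 CPM in AEF149, against 73.8 to 245 CPM with a median of 113 in AEF231. No library overlapped (change -2.36 ± 0.26, edgeR adjusted p = 7.64e-07), and col-81 changed by -2.29 ± 0.23 (edgeR adjusted p = 2.15e-07). Like msp-49, col-129 was highest in AEF231 replicates 5 and 6, and its change was -2.51 over all libraries and -2.53 within batch 1. A run of neighbouring collagens on chromosome X, col-167, col-168, col-169 and col-170 (6323488 to 6332611), went the other way. col-168 was read at 7.66, 10.8, 10.07, 10.7 and 13.4 CPM in AEF149, against 0.759 to 1.91 CPM with a median of 1.14 in AEF231. All 5 AEF149 values exceeded all AEF231 values (change 2.81 ± 0.31, edgeR adjusted p = 1.59e-08), and col-167, col-169 and col-170 changed by 3.08, 2.94 and 2.37; these close copies may share reads, and col-168 and col-170 were named after their values were seen. col-107, on chromosome IV, was read at 26.1, 43.01, 42.2, 36.4 and 40.6 CPM in AEF149 and at 1.77 to 4.75 CPM with a median of 3.18 in AEF231, again with no overlap (change 3.10 ± 0.34, edgeR adjusted p = 1.02e-06).

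Set against AEF373, 16 collagens were higher and 44 lower (16.3% and 44.9%, against 13.2% and 19% of all genes). Against AEF276 there were 23 and 23 (23.5% each, against 9.58% and 14.9%), where 23 became 15 without AEF276 replicate 2. The collagen gene ram-2 was read at 27.4, 47.2, 38.1, 38.1 and 42.7 CPM in AEF149, against 9.63 to 17.1 CPM with a median of 9.87 in AEF231, without overlap (change 1.604 ± 0.29, edgeR adjusted p = 0.00034). Hedgehog-related genes, whose products are secreted by the epidermis, gave 5 higher and 5 lower of 47 tested with the patched-related genes. That is 10.6% each, against 6.51% and 11% of all genes, and the 5 higher became 3 without AEF149 replicate 2. grd-3 was read at 37.99, 33.4, 27.8, 36.8 and 32.6 CPM in AEF149 and at 62.9 to 91.2 CPM with a median of 70.5 in AEF231. Every AEF149 library was lower than every AEF231 library (change -1.02 ± 0.08, edgeR adjusted p = 9.26e-13), and grd-5 changed by -0.91 ± 0.09 (edgeR adjusted p = 3.25e-09). Of 6 epidermal marker genes, none at 0, col-19 alone was called. The other 5 summed to 20.3 to 50.7 CPM in AEF149 and 15.2 to 39.4 CPM in AEF231, which overlapped. The sum of 5 larval cuticle and moulting genes was 40.0 to 60.99 CPM in AEF149 and 39.0 to 54.8 CPM in AEF231. The part of either in the result was not tested.

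**Figure D3:**
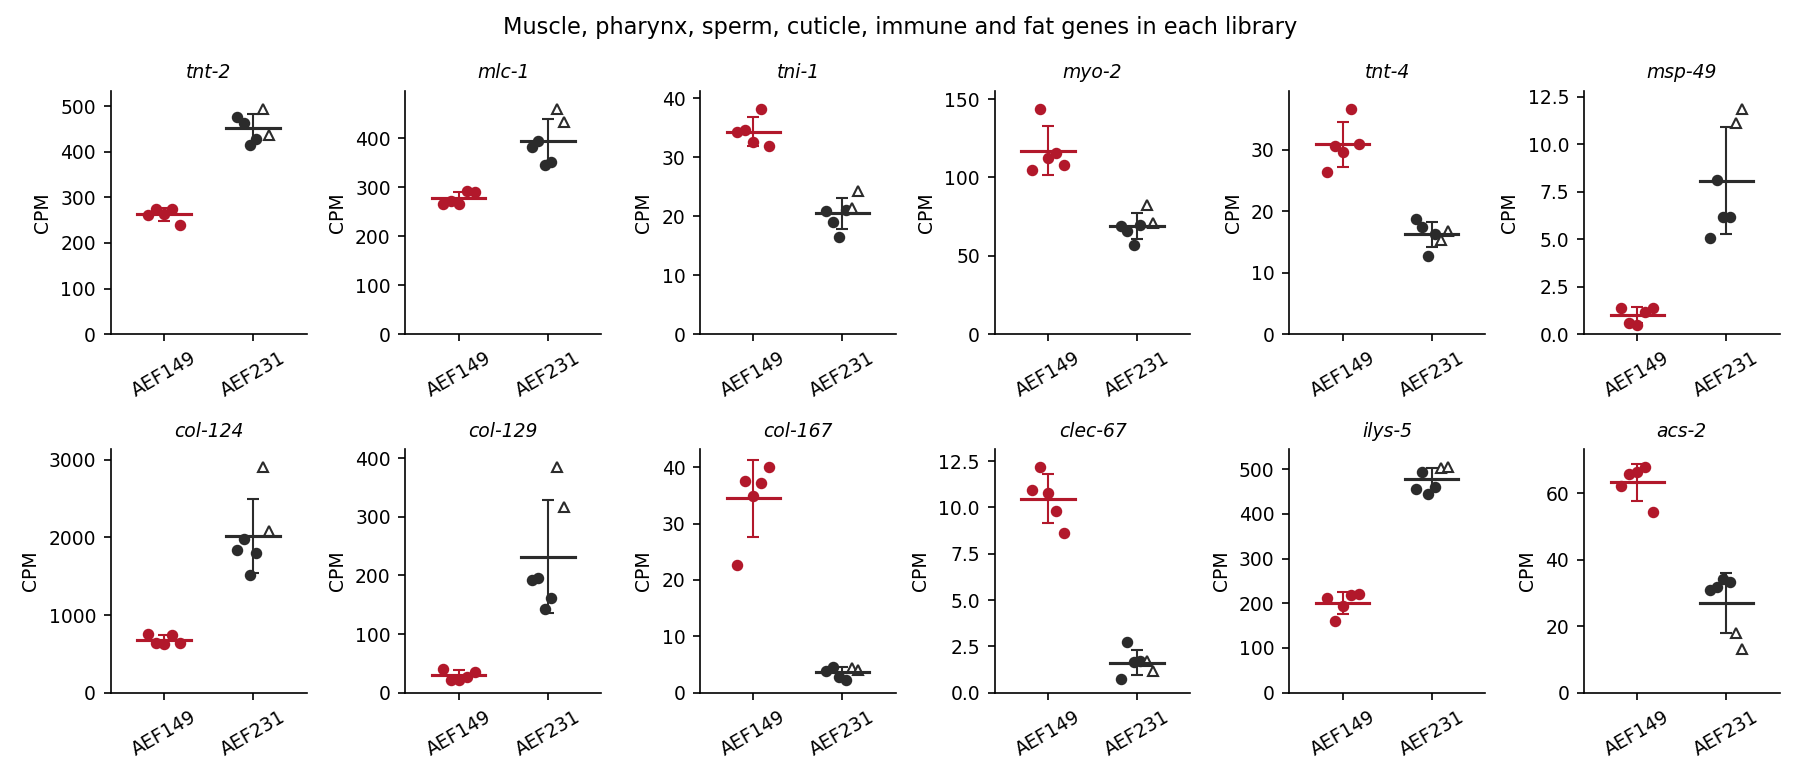
CPM of 12 genes of muscle, pharynx, sperm, cuticle, immunity and fat metabolism in each AEF149 (left) and AEF231 (right) library. Filled circles are batch 1, open triangles batch 2, bars means and error bars SD; the libraries of the 2 strains do not overlap in any panel.

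Muscle genes of the body wall and of the pharynx moved in opposite directions. Of 33 tested genes of body wall muscle, 21 were lower and 1 higher (63.6% and 3.03%, median -0.31). Of 14 pharyngeal genes, 9 were higher and 1 lower (64.3% and 7.14%, median 0.62). Over all genes 6.51% were higher and 11% lower. The lower pharyngeal gene was phat-4, a call that was lost without most single libraries (AEF231 replicate 1, 2, 4, 5 or 6, or AEF149 replicate 1, 3, 4 or 5). tnt-2, a troponin T, was read at 262, 274, 263, 275 and 238 CPM in AEF149, against 415 to 494 CPM with a median of 450.2 in AEF231. The groups were separate (change -0.77 ± 0.06, edgeR adjusted p = 4.63e-13), and AEF373 and AEF276, at medians of 505 and 379 CPM, were also above AEF149. dim-1, an immunoglobulin domain protein of muscle attachment, was read at 131, 139.5, 132, 134 and 125 CPM in AEF149 and at 170.4 to 265 CPM with a median of 194 in AEF231. It did not overlap either (change -0.53 ± 0.06, edgeR adjusted p = 2.09e-09), nor did the myosin light chain mlc-1 (change -0.43 ± 0.05, edgeR adjusted p = 5.06e-08).

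tni-1 was the body wall gene that rose. This troponin I was read at 34.3, 34.6, 32.6, 38.3 and 31.9 CPM in AEF149, against 16.44 to 24.3 CPM with a median of 20.95 in AEF231. All AEF149 values were higher (change 0.77 ± 0.10, edgeR adjusted p = 5.26e-08), and the change over AEF276 was 1.26 ± 0.10 (edgeR adjusted p = 3.38e-13). The pharyngeal troponin T tnt-4 was read at 26.5, 30.7, 29.6, 36.7 and 30.97 CPM in AEF149 and at 12.7 to 18.7 CPM with a median of 16.6 in AEF231. It was higher in each AEF149 library (change 0.86 ± 0.10, edgeR adjusted p = 1.34e-08) and exceeded AEF373 and AEF276 as well (0.39 ± 0.10 and 1.204 ± 0.10, edgeR adjusted p = 0.00301 and 5.71e-12). myo-1, myo-2 and myo-5, the pharyngeal myosin heavy chains, changed by 0.62 ± 0.11, 0.76 ± 0.10 and 0.45 ± 0.09 (edgeR adjusted p = 0.000282, 6.54e-06 and 0.000461). phat-5, of a family of pharyngeal gland genes, was read at 26, 49, 28, 26 and 23 counts in AEF149 and at 0 to 3 counts in AEF231, without overlap. In AEF373 it was uneven, at 4 to 72 counts.

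The summed level of 10 body wall muscle markers was 3417 to 3629 CPM in AEF149 and 4487 to 5967 CPM in AEF231. That of 7 pharyngeal markers was 302 to 378 CPM in AEF149 and 173 to 253 CPM in AEF231. None of these markers was at 0. Against AEF373, 32 of 33 body wall genes were lower in AEF149 and 0 higher (median -0.48). Of the pharyngeal genes 1 was higher and 3 lower (7.14% and 21.4%, against 13.2% and 19% of all genes). Against AEF276, 11 pharyngeal genes were higher and 0 lower (median 0.73). Of the body wall genes 3 were higher and 9 lower (9.09% and 27.3%, against 9.58% and 14.9% of all genes). The 3 became 5 without AEF276 replicate 2. The marker of the AEF149 array is itself driven in body wall muscle, and its part in these values was not tested.

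Stress genes were called in both directions. Of 19 tested heat shock genes, 3 were higher and 1 lower (15.8% and 5.26%, against 6.51% and 11% of all genes). The lower call was lost without any of AEF231 replicates 1, 2 and 4 or AEF149 replicates 1, 3 and 5. The small heat shock gene hsp-16.41 was read at 33, 51, 40, 27 and 21 counts in AEF149 and at 0 to 2 counts in AEF231. Its neighbour hsp-16.2, a close copy, stood at 2.22, 2.75, 2.78, 3.54 and 2.44 CPM in AEF149 and 0 to 0.454 CPM with a median of 0.228 in AEF231. Neither overlapped, and hsp-16.41 was also above AEF373 and AEF276 (1.601 ± 0.46 and 4.79 ± 0.58, edgeR adjusted p = 0.00593 and 5.03e-08); without AEF276 replicate 4 the change over AEF276 was 5.67. hsp-17, another small heat shock gene, was read at 40.4, 41.5, 48.5, 54.7 and 42.7 CPM in AEF149, against 18.6 to 31.2 CPM with a median of 23.8 in AEF231, also without overlap (change 0.75 ± 0.11, edgeR adjusted p = 7.39e-06).

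Genes of the ER unfolded protein response, the pathway that the reporter follows, were divided. Of 29 tested, 3 were higher and 4 lower (median -0.02), or 10.3% and 13.8% against 6.51% and 11% of all genes. The 3 became 1 without AEF149 replicate 3 or 5, and the 4 became 1 without AEF231 replicate 5. ckb-2, a choline kinase induced by ER stress, was read at 55.8, 51.2, 59.5, 53.1 and 48.7 CPM in AEF149, against 27.7 to 45.3 CPM with a median of 36.8 in AEF231. It was higher with no overlap (change 0.51 ± 0.11, edgeR adjusted p = 0.000911). dnj-27, an ER DnaJ and thioredoxin protein, was lower with overlap (change -0.33 ± 0.08, edgeR adjusted p = 0.00266). Ribosomal protein genes, 79 tested, gave 0 higher and 16 lower (20.3% lower, against 11% of all genes). The 16 became between 2 and 18 without 1 library, with 2 without AEF231 replicate 2 or 5. They became 9 with upper quartile scaling and 0 when tested against a 1.2-fold change. Proteasome subunits gave 0 higher and 0 lower of 33 against AEF231. They gave 21 higher and 0 lower against AEF373 (63.6% higher, against 13.2% of all genes, median 0.15). Against AEF276 they gave 0 higher and 27 lower (81.8% lower, against 14.9% of all genes, median -0.17). The 21 became 0 when tested against a 1.2-fold change.

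Immune effectors included rises and falls. Of 87 tested C-type lectin genes, 18 were higher and 14 lower. clec-67 (WBGene00018971, chromosome IV, 3922165 to 3925039, plus strand), a lectin gene used as a readout of infection, was read at 10.9, 12.2, 10.8, 9.79 and 8.64 CPM in AEF149, against 0.753 to 2.74 CPM with a median of 1.67 in AEF231. Each AEF149 library exceeded each AEF231 library (change 2.53 ± 0.21, edgeR adjusted p = 3.52e-12), and the changes over AEF373 and AEF276 were 1.199 ± 0.20 and 1.64 ± 0.20 (edgeR adjusted p = 1.23e-05 and 3.71e-08). clec-72, close to clec-67 on chromosome IV, and clec-62 rose by 3.24 ± 0.42 and 0.83 ± 0.08 (edgeR adjusted p = 3.17e-07 and 6.23e-11). clec-48 was read at 27.8, 32.98, 26.5, 27.4 and 23.99 CPM in AEF149 and at 45.4 to 58.2 CPM with a median of 49.9 in AEF231, lower in every AEF149 library (change -0.90 ± 0.08, edgeR adjusted p = 2.93e-11).

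Genes associated with the p38 kinase PMK-1, a pathway of defence in the intestine, gave 8 higher and 2 lower of 25 tested. That is 32% and 8%, against 6.51% and 11% of all genes. The 2 became 1 without AEF231 replicate 1, 2, 3 or 6. T24B8.5, a ShK toxin domain gene widely used as its reporter, was read at 27.9, 27.3, 30.4, 32.8 and 21.8 CPM in AEF149, against 3.37 to 8.63 CPM with a median of 6.76 in AEF231. Its groups were apart (change 1.87 ± 0.16, edgeR adjusted p = 8.4e-11). irg-4 was read at 13.9, 12.9, 9.91, 14.2 and 13.4 CPM in AEF149 and at 4.42 to 7.34 CPM with a median of 5.90 in AEF231, and was higher throughout (change 1.24 ± 0.14, edgeR adjusted p = 3.07e-09). The bZIP transcription factor gene zip-2, which acts in parallel to PMK-1, rose by 0.43 ± 0.07 (edgeR adjusted p = 6.28e-06). Of 25 tested genes of the intracellular pathogen response, 6 were higher and 0 lower (24% and 0%). The 6 became 3 without AEF231 replicate 4 or AEF149 replicate 2.

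Lysozymes were lower where they changed, 3 of 11 tested or 27.3%, against 11% of all genes. The invertebrate-type lysozyme gene ilys-5 (WBGene00017691, chromosome X, 6533490 to 6536840, minus strand) was read at 212, 161, 193, 218 and 221 CPM in AEF149, against 444 to 505 CPM with a median of 478 in AEF231. All AEF149 libraries were lower (change -1.16 ± 0.07, edgeR adjusted p = 7.32e-16), also against AEF373 and AEF276 (-0.45 ± 0.07 and -0.70 ± 0.07, edgeR adjusted p = 7.8e-06 and 7.47e-10). lys-4 changed by -0.39 ± 0.07 (edgeR adjusted p = 0.000309).

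Genes of fat and propionate breakdown were mostly lower where they changed. Of 73 tested genes of fatty acid activation, oxidation and lipolysis, 26 were lower and 4 higher (median -0.18). That is 35.6% and 5.48%, against 11% and 6.51% of all genes. Tested against a 1.2-fold change, the 26 became 9 and the 4 became 2. acs-2, an acyl-CoA synthetase induced by fasting, was among the 4: it was read at 62.1, 65.9, 66.4, 67.9 and 54.3 CPM in AEF149, against 13.1 to 34.2 CPM with a median of 31.4 in AEF231. AEF231 replicates 5 and 6 were the lowest, and the AEF149 range was separate from both batches (change 1.03 ± 0.10, edgeR adjusted p = 5.39e-09; 0.98 within batch 1). It was also above AEF373 and AEF276, by 1.103 ± 0.11 and 1.01 ± 0.10 (edgeR adjusted p = 3.82e-09 and 1.25e-08). acox-1.3, an acyl-CoA oxidase of peroxisomes that shapes ascaroside pheromones, was read at 10.02, 8.99, 10.9, 9.34 and 11.5 CPM in AEF149 and at 15.8 to 20.1 CPM with a median of 18.8 in AEF231. It was lower without overlap (change -0.87 ± 0.11, edgeR adjusted p = 1.75e-07), as were its neighbours acox-1.1, acox-1.2 and acox-1.4 in 1 run on chromosome I (12938555 to 12954003, log2 fold changes of the run between -0.87 and -0.35).

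Of 25 tested genes of the propionate shunt, which degrades propionate without vitamin B12, and of the methionine cycle, 11 were lower and 0 higher (44% lower, against 11% of all genes). hphd-1, its hydroxyacid-oxoacid transhydrogenase, was read at 377, 379.7, 375, 387 and 362 CPM in AEF149, against 487 to 553 CPM with a median of 501 in AEF231. Each AEF149 library was below the AEF231 range (change -0.41 ± 0.05, edgeR adjusted p = 4.5e-08). The hydrolase hach-1 and the acyl-CoA dehydrogenase acdh-1 changed by -0.47 ± 0.06 and -0.34 ± 0.05 (edgeR adjusted p = 3.83e-08 and 1.01e-06), and hacd-1, a hydroxyacyl-CoA dehydrogenase, by -0.53 ± 0.07 (edgeR adjusted p = 6.13e-07). pmt-2, a methyltransferase of phosphatidylcholine synthesis, was read at 314, 310.1, 304, 353 and 304 CPM in AEF149 and at 394 to 605 CPM with a median of 453 in AEF231. No library overlapped (change -0.51 ± 0.07, edgeR adjusted p = 2.15e-07).

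Of 21 tested genes of fatty acid desaturation and elongation, 8 were lower and 0 higher (38.1% lower, against 11% of all genes). The 8 became 5 without AEF231 replicate 5. fat-7, a stearoyl-CoA desaturase, was read at 96.7, 113, 107.5, 102 and 117 CPM in AEF149, against 141.9 to 186 CPM with a median of 151 in AEF231. It was lower without overlap (change -0.52 ± 0.09, edgeR adjusted p = 6.74e-05), and AEF373 was on the far side of AEF231, at 248 to 322 CPM (AEF149 over AEF373 -1.38 ± 0.09, edgeR adjusted p = 2.49e-12). The elongase elo-6, of branched-chain fatty acids, changed by -0.53 ± 0.08 (edgeR adjusted p = 3.23e-05). Of 41 tested nuclear genes of oxidative phosphorylation, 20 were lower and 0 higher (48.8% lower, against 11% of all genes, median -0.19). The 20 became 1 when tested against a 1.2-fold change. The changes were small: nuo-2 and nduf-9 of complex I changed by -0.30 ± 0.05 and -0.29 ± 0.05 and ucr-2.2 of complex III by -0.40 ± 0.07 (edgeR adjusted p = 7.76e-06, 6.58e-06 and 2.01e-05).

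Yolk and digestive genes of the intestine were lower where they changed, with exceptions. vit-3, a yolk protein gene, was read at 2496, 2182.2, 2193, 2067 and 2269 CPM in AEF149, against 2970.2 to 4049 CPM with a median of 3365 in AEF231. All AEF149 libraries lay lower (change -0.48 ± 0.08, edgeR adjusted p = 2.45e-05), and vit-1 changed by -0.47 ± 0.10 (edgeR adjusted p = 0.00197). In all, 4 of 6 vit genes were lower, which became 2 without any of AEF231 replicates 1, 2, 4 and 5 or AEF149 replicates 2, 3, 4 and 5; with upper quartile or DESeq2 scaling it was also 2, and the vit genes are close copies. Of 18 tested cathepsin and aspartyl protease genes, 8 were lower and 1 higher (44.4% and 5.56%, against 11% and 6.51% of all genes). The 8 became 5 without AEF231 replicate 4 or 5. asp-13 was read at 157, 146, 153, 150.1 and 151 CPM in AEF149 and at 220.2 to 284 CPM with a median of 241 in AEF231. It fell without overlap (change -0.64 ± 0.05, edgeR adjusted p = 3.75e-14), as did asp-8 and asp-2 (-1.76 ± 0.17 and -0.39 ± 0.05, edgeR adjusted p = 9.28e-11 and 3.83e-08).

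asp-12 was the protease gene that rose. It was read at 169.4, 174, 151, 177 and 161 CPM in AEF149, against 29.01 to 59.7 CPM with a median of 48.9 in AEF231. The groups were widely separated (change 1.80 ± 0.16, edgeR adjusted p = 4.44e-08). AEF373 was higher than AEF149, at 255 to 302 CPM, and AEF276, at 46.3 to 78.4 CPM, was near AEF231 (AEF149 over AEF373 -0.80 ± 0.16 and over AEF276 1.56 ± 0.16, edgeR adjusted p = 0.000601 and 5.9e-07). Among 21 tested intestinal genes, 7 were lower and 1 higher (33.3% and 4.76%, against 11% and 6.51% of all genes). The 7 became 0 when tested against a 1.2-fold change. Of the 7, vha-6, a subunit of the apical proton pump, changed by -0.35 ± 0.05 and the microvillar actin act-5 by -0.35 ± 0.07 (edgeR adjusted p = 2.35e-07 and 0.000222). The 1 became 2 without AEF231 replicate 5 or AEF149 replicate 1. The summed level of 8 intestinal markers was 32965 to 37172 CPM in AEF149 and 35321 to 45334 CPM in AEF231, which overlapped, with no marker at 0. The yolk gene vit-6 held 51.1% of these counts, and the other 7 markers summed to 15721 to 17910 CPM in AEF149 and 18136 to 22143 CPM in AEF231, which did not overlap.

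Of 55 tested UDP-glucuronosyltransferase genes, whose enzymes conjugate toxins, 10 were lower and 1 higher (18.2% and 1.82%, against 11% and 6.51% of all genes). Among them, ugt-49 and ugt-41 changed by -0.52 ± 0.09 and -0.68 ± 0.15 (edgeR adjusted p = 1.84e-05 and 0.00141). The 1 became 2 without AEF231 replicate 1. Of 32 tested glutathione S-transferase genes, 2 were higher and 1 lower (6.25% and 3.125%, against 6.51% and 11% of all genes). The 1 lower became 2 without AEF149 replicate 4. gst-24 was read at 6.87, 7.21, 6.98, 7.71 and 6.89 CPM in AEF149, against 0.847 to 1.65 CPM with a median of 1.296 in AEF231. It stood apart in AEF149 (change 2.51 ± 0.22, edgeR adjusted p = 1.01e-11), and gst-38 rose by 1.303 ± 0.24 (edgeR adjusted p = 7.82e-05). The linker histone gene his-24 was read at 44.8, 54.1, 47.8, 53.1 and 51.99 CPM in AEF149 and at 60.3 to 116 CPM with a median of 82.2 in AEF231, lower in each AEF149 library (change -0.84 ± 0.10, edgeR adjusted p = 1.06e-06).

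**Figure D4:**
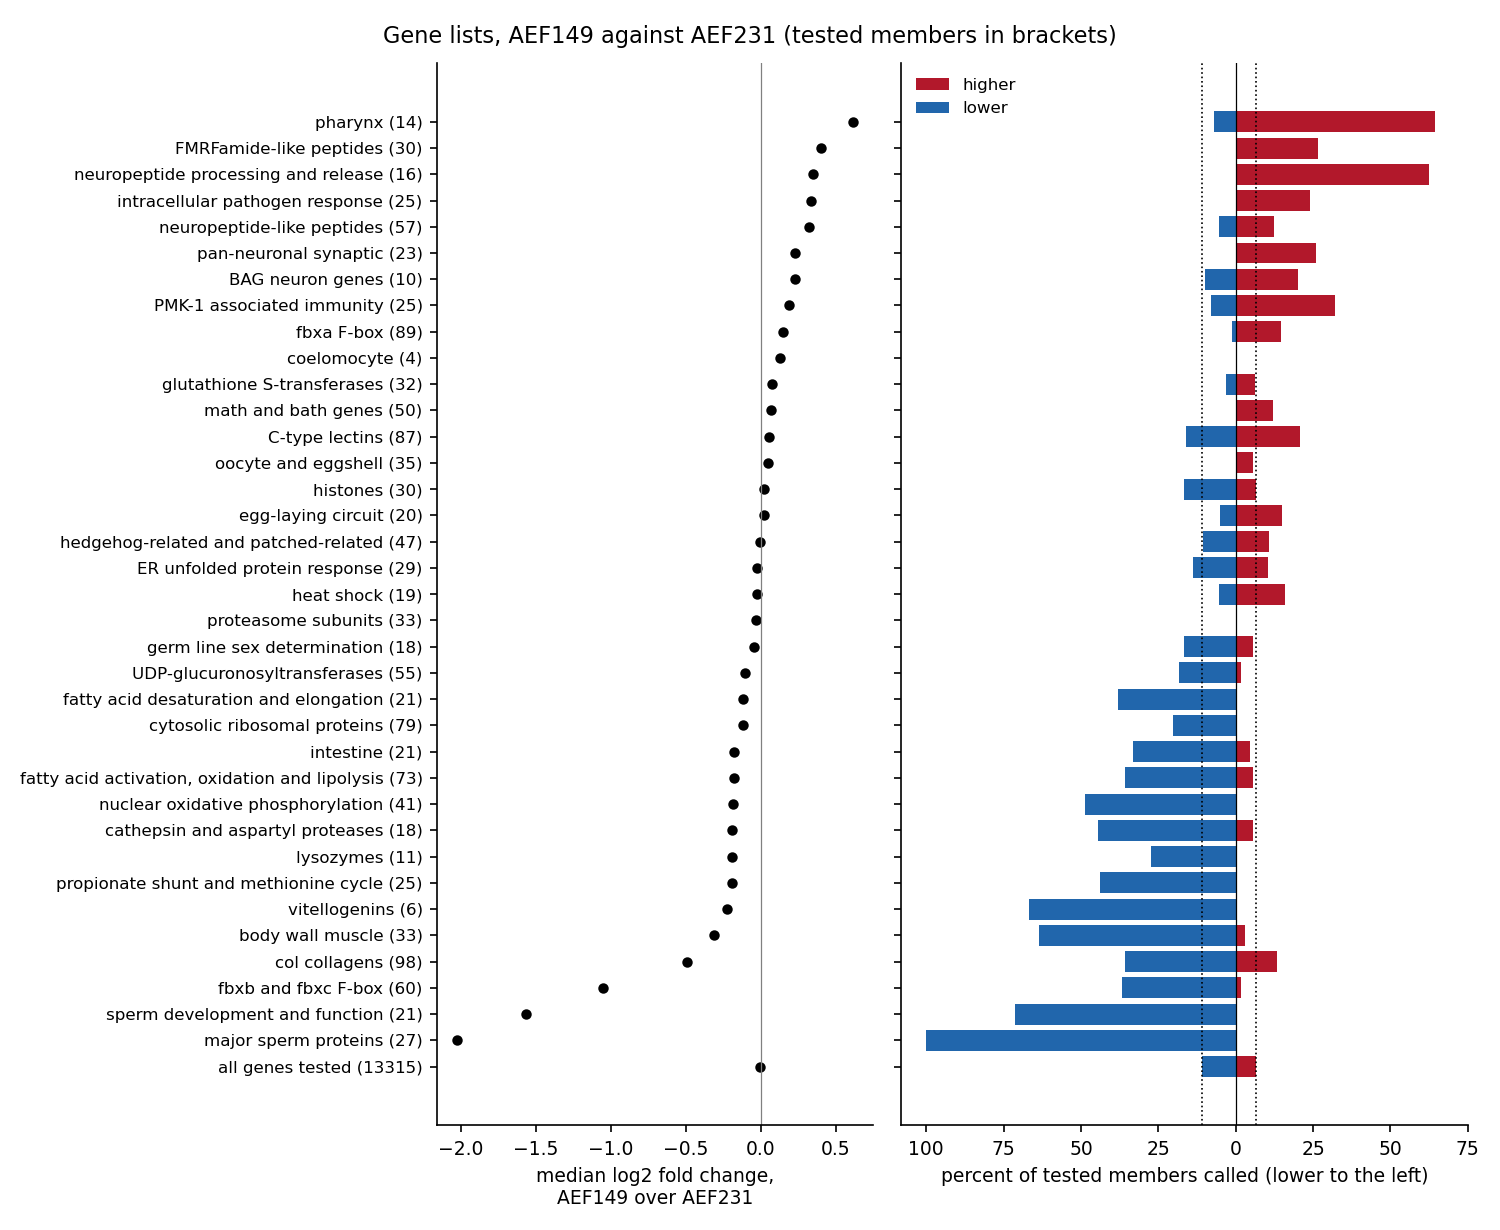
Gene lists by the median log2 fold change of their tested members (left) and by the percent of tested members called higher (red) or lower (blue) at an edgeR adjusted p below 0.05 (right). Dotted lines mark 6.51% and 11%, the shares over all 13315 genes, and the number of tested members stands in brackets; by the median, the 2 sperm lists lie farthest to the lower side, then fbxb and fbxc F-box genes, and pharyngeal genes farthest to the higher side.

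Single genes with the largest changes included several that were nearly silent in AEF231. C18H7.1 (WBGene00015993, chromosome IV, 615544 to 620936, plus strand) was read at 74, 97, 85, 60 and 54 counts in AEF149 and at 0 to 3 counts in AEF231. R05A10.1 was read at 3.79, 4.68, 6.35, 5.99 and 6.98 CPM in AEF149, against 0 to 0.760 CPM with a median of 0.0896 in AEF231. C18H7.1 was also higher than in AEF373 and AEF276, with changes of 2.28 ± 0.39 and 3.89 ± 0.40 (edgeR adjusted p = 1.36e-05 and 7.47e-10). T01D3.3, C25F9.11 and F15B9.6 rose by 3.42 ± 0.30, 3.21 ± 0.38 and 3.04 ± 0.30 (edgeR adjusted p = 1.35e-11, 2.7e-08 and 2.35e-10); without AEF231 replicate 3 the change of C25F9.11 was 3.87. lips-11 (WBGene00020472, chromosome II, 1108841 to 1111001, minus strand), a gene related to lipases, had 17, 26, 22, 31 and 18 counts in AEF149 and 0 in each AEF231 library. Against a floor of 3 counts over the AEF231 group, 0.0449 CPM, the AEF149 mean of 1.85 CPM was at least 41.3-fold higher. It was the 1 gene with at most 1 count in each AEF231 library and at least 10 in each AEF149 library, and no gene met the reverse condition. Other strains were not part of the condition: lips-11 had 7, 8, 14, 3 and 1 counts in AEF373 and 1, 0, 3, 4 and 0 in AEF276.

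Among the largest falls, pho-11 (WBGene00007331, chromosome II, 9931849 to 9934431, plus strand), an acid phosphatase gene, was read at 10.4, 9.95, 15.9, 10.2 and 14.4 CPM in AEF149, against 53.8 to 96.2 CPM with a median of 62.2 in AEF231. Every AEF149 library was below every AEF231 library (change -2.35 ± 0.13, edgeR adjusted p = 6.4e-13). The same held against AEF373 and AEF276 (-1.83 ± 0.14 and -1.83 ± 0.13, edgeR adjusted p = 9.62e-11 and 1.46e-10). msd-4, of the family of small major sperm domain proteins, and F08B4.8 fell by 2.55 and 2.31 on the log2 scale (edgeR adjusted p = 4.6e-06 and 0.000171).

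Because AEF149 was not outcrossed, the places of the called genes are given. The share of tested genes called was 16.52% on chromosome I, 18.3% on II, 12.85% on III, 19.8% on IV, 17.9% on V and 19.8% on X, against 17.5% over all genes. Over 102 windows of 1 Mb with at least 20 tested genes the median share was 16.47%, with a range of 7.84% to 33.9%. The highest was chromosome IV from 5000001 to 6000000 (33.9%), then X from 15000001 to 16000000 (31.9%) and II from 1000001 to 2000000 (31.2%). Without the sperm, F-box and MATH lists, a choice made after the data were seen, the window on X stood highest at 31.9%, and the others were at 28.7% on IV and 29.4% on II. In the window on II, lin-42, the homologue of the period clock gene that times moults, rose by 0.96 ± 0.12 (edgeR adjusted p = 1.45e-07). In the window on X, mrp-3, an ABC transporter, and K09E9.4 changed by -0.60 ± 0.09 and 1.56 ± 0.25 (edgeR adjusted p = 5.69e-06 and 7.5e-06), as did the complex I gene gas-1. gas-1 was read at 96.9, 87.1, 90.7, 92.0 and 95.9 CPM in AEF149, against 117 to 161 CPM with a median of 132 in AEF231, lower in all AEF149 libraries. In the window on IV, elo-6 and many msp genes were among the lower genes.

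Runs of at least 4 neighbouring tested genes called in 1 direction numbered 5 higher and 14 lower, and these were looked for after the data were seen. One run lay near flp-17 on chromosome IV: skr-13, skr-9, skr-8 and skr-12 (17162097 to 17167792), which encode Skp1-related subunits of ubiquitin ligases, were lower in AEF149. skr-8 was read at 2.08, 1.71, 1.90, 2.27 and 1.22 CPM in AEF149, against 4.60 to 6.54 CPM with a median of 5.35 in AEF231. The groups did not overlap (change -1.77 ± 0.22, edgeR adjusted p = 3.35e-08), nor did those of skr-12 (change -1.42 ± 0.33, edgeR adjusted p = 0.00149). The libraries of skr-9 and skr-13 overlapped (changes -1.06 ± 0.26 and -0.92 ± 0.31, edgeR adjusted p = 0.00248 and 0.033); skr-13 missed the threshold without any of AEF231 replicates 1, 2, 3 and 6 or AEF149 replicates 1, 2, 3 and 5, with adjusted p between 0.0563 and 0.101. The skr genes are close copies that may share reads.

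A stretch of higher genes on chromosome X ran from rgs-10 (start 14962756) to rbg-1 (end 14987365), and its genes were named after their values were seen. rgs-11, a regulator of G protein signalling, was read at 53.2, 58.7, 55.8, 54.1 and 55.2 CPM in AEF149, against 21.6 to 29.01 CPM with a median of 27.4 in AEF231. F20D1.3 was read at 317, 319, 314, 306 and 335 CPM in AEF149 and at 127 to 191 CPM with a median of 148.99 in AEF231. rbg-1, a subunit of a RAB3 GTPase activating complex, was read at 81.4, 85.2, 80.6, 78.4 and 73.9 CPM in AEF149 and at 27.4 to 39.0 CPM with a median of 33.9 in AEF231. In each of these genes all AEF149 libraries were above all AEF231 libraries, by 1.16 ± 0.08, 1.11 ± 0.07 and 1.27 ± 0.08 (edgeR adjusted p = 1.68e-15, 7.32e-16 and 9.78e-17).

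Others in the stretch were rgs-10 at 0.88 ± 0.20, F20D1.1 at 0.49 ± 0.05, tbc-1, a Rab GTPase activating protein, at 0.58 ± 0.05 and emre-1, a regulator of the mitochondrial calcium uniporter, at 1.023 ± 0.13 (edgeR adjusted p = 0.000972, 6.48e-10, 6.17e-11 and 2.35e-07). F45B8.5, F20D1.22 and plp-2, which lie between them, were not called. rgs-11 exceeded AEF373 and AEF276 by 1.14 ± 0.08 and 1.084 ± 0.08, almost the same size as over AEF231, while rbg-1 exceeded AEF373 by 0.45 ± 0.08 and AEF276 by 1.27 ± 0.08 (each edgeR adjusted p at or below 1.23e-05). Before the stretch, mrp-5 changed by -0.02 with an edgeR adjusted p of 0.851, and hex-5, farther out, by -0.61 with 0.0018. After it, iglr-1 stood at 0.96 over AEF231 (edgeR adjusted p = 0.12), -0.29 over AEF373 (0.607) and 1.49 over AEF276 (0.0138), and the next gene, cutl-3, at 0.06 over AEF231 (0.93).

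**Figure D5:**
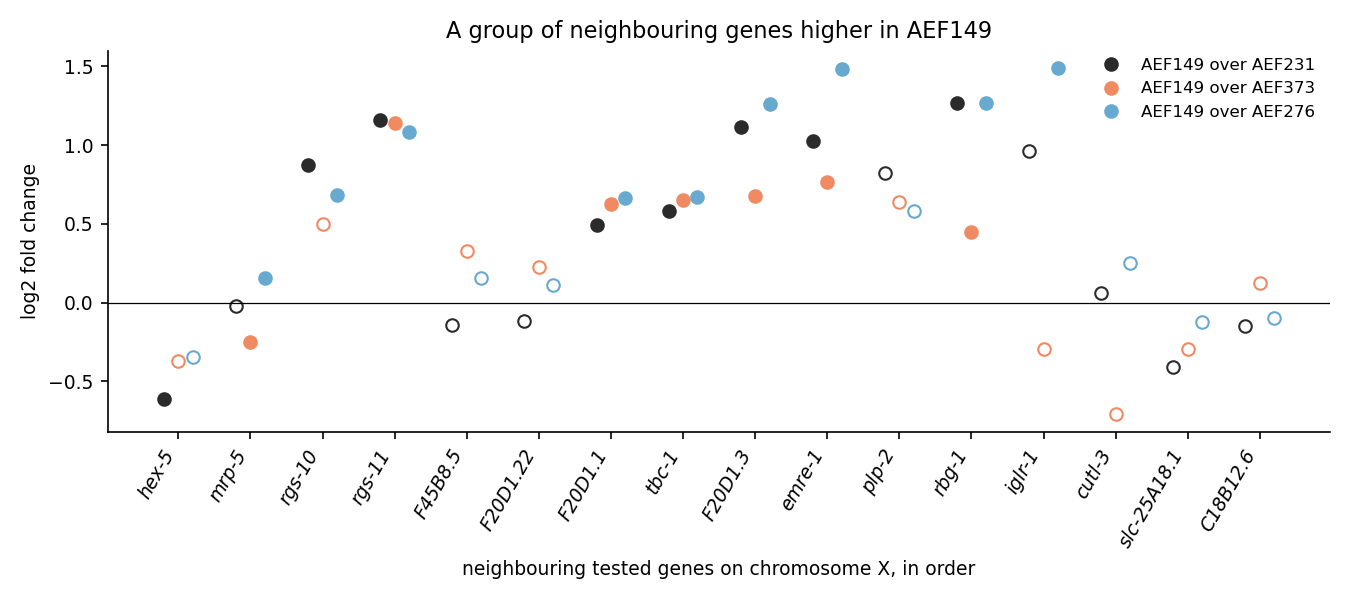
Log2 fold change of AEF149 over AEF231, AEF373 and AEF276 for 16 neighbouring tested genes of chromosome X, in their order along the chromosome. Filled points are called at an edgeR adjusted p below 0.05 and open points are not; the 7 called genes from rgs-10 to rbg-1 are above 0 in all 3 comparisons, mrp-5 is near 0 over AEF231, and iglr-1 is above 0 over AEF231 and AEF276 and called over AEF276 alone.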

How the data were processed

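Poly(A) RNA of 26 whole-animal libraries of 5 strains was sequenced, and the authors deposited 1 table of whole-number counts per gene symbol and library, not normalized. Reads were aligned with STAR 2.7.11b to ce11, per the submitters' processing notes; which counting tool, strand setting and annotation release followed is not given in the sources used here. Reads of overlapping or antisense genes therefore cannot be told apart. Of 42533 symbols, 40763 matched the Ensembl and RefSeq gene tables for WBcel235, the assembly that ce11 names, from which IDs and places were taken; unmatched symbols held 0.509% of counts. Library totals were 9659877 to 15528669 counts over the 26 libraries. No 2 libraries of AEF149, and no 2 of AEF231, agreed within sampling noise (chi-square per gene 3.38 to 13.7 over pairs within each of these strains). The other strains were not checked in this way.

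Genes were kept by edgeR's filterByExpr by strain, which left 13315. edgeR 4.0.16 (R 4.3.3) was fitted to all 26 libraries with TMM scaling, strain and batch as terms and robust quasi-likelihood; p-values had the Benjamini-Hochberg adjustment over every tested gene, and calls were made below 0.05. Libraries of a strain varied by 8.01% (common biological coefficient of variation). CPM and log2 fold changes were computed here, and SE are those of the fitted change. The fifth strain, AEF378, entered the fit and is not described. On data simulated for the AEF149 and AEF231 comparison (12752 genes in that step), 55% of 100 genes changed by 0.5 on the log2 scale and 88% of 100 genes changed by 1 were called, with 12 calls among 12552 unchanged genes. The simulation drew every strain from the AEF231 means, without a batch effect, and changed no other genes. In the real comparison 17.5% of genes were called, so that these rates need not hold there.

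The lists, the members and the tests were chosen with earlier results of these data known, so that no list count is independent evidence. Named genes were flp-17, gfp, hsp-4 and myo-3; the 12 largest rises and 12 largest falls without overlap at a mean of at least 2 CPM over the 11 libraries; up to 4 called members of each list by adjusted p at that level; members of the BAG, egg-laying, neuropeptide and heat shock lists; genes read in 1 strain only; and 4 genes in each of the 3 densest windows. Others, among them the skr genes, the genes from rgs-10 to rbg-1, col-168, col-170, fbxb-41, phat-5 and acdh-1, were named after their values were seen. Each fit was repeated with a replicate block, without robust weights, without each library in turn, without the batch term, in batch 1 alone and with only the strains compared. Other size factors and low-count filters, stricter thresholds and DESeq2 1.42.0 were also tried. The marker mCherry and reads by base were not analysed here.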

Additional observations from a re-analysis of the deposited data

Results flagged for a closer look

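In 16 of 288 sets of values, for 144 named genes in AEF149 and in AEF231, 1 library lay far from the others of its strain (5.56%; chance gives about 1 in 20). In AEF149, replicate 2 was low for msp-152 at 1.19 CPM with the nearest library at 1.82, and high for the pharyngeal genes myo-2 at 143.96 CPM (nearest 115.9) and phat-5 at 3.64 CPM (nearest 2.36). AEF149 replicate 3 was high for gcy-9 at 2.86 CPM (nearest 1.78) and for ins-17 at 6.42 CPM (nearest 4.94). AEF149 replicate 4 was high for grd-5 at 38.4 CPM (nearest 29.03), for clec-62 at 45.4 CPM (nearest 41.4) and for pmt-2 at 353 CPM (nearest 313.5), and low for tbc-1 at 144.1 CPM (nearest 157.2) and for mrp-3 at 11.43 CPM (nearest 14.5).

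In AEF231, replicate 5 of batch 2 was high for col-179 at 573.8 CPM (nearest 448.1), for col-169 at 1.13 CPM (nearest 0.570) and for ram-2 at 17.1 CPM (nearest 11.7). AEF231 replicate 1 was low for unc-31 at 3.67 CPM (nearest 4.60), AEF231 replicate 3 was high for C18H7.1 at 0.2725 CPM (nearest 0.0941) and AEF231 replicate 4 was high for R05A10.1 at 0.760 CPM (nearest 0.282). The calls of all these genes held without the library named. Without AEF231 replicate 3 the change of C18H7.1 was 7.17, against 5.96 ± 0.53 with it, and without AEF231 replicate 4 that of R05A10.1 was 5.35, against 4.37 ± 0.49 with it.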

How the results depend on the processing

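Between AEF149 and AEF231 the counts of 867 higher and 1467 lower genes were 725 to 1002 and 1154 to 1354 without 1 library, 989 and 1098 in batch 1 alone and 1004 and 1464 by DESeq2. Stricter rules moved them: testing against a 1.2-fold change gave 372 and 548, and an adjusted p of 0.01 gave 476 and 920. List counts also fell at 1.2-fold. Higher genes of neuropeptide processing went from 10 to 4 and flp genes from 8 to 2. Lower genes of body wall muscle went from 21 to 11, of propionate and methionine from 11 to 4 and of desaturation and elongation from 8 to 2. Against AEF373 the counts were 1345 to 1760 higher and 2176 to 2586 lower without 1 library, 201 and 1313 at 1.2-fold, and 959 higher at 0.01. Against AEF276 they were 1009 to 1258 higher without 1 library, 488 at 1.2-fold and 688 at 0.01. The 1980 genes lower than in AEF276 were 608 to 2268 without 1 library, 505 with upper quartile scaling, 961 with no filter, 991 at a mean of at least 2 CPM, 932 in batch 1 alone, 951 with only the strains compared, 51 at 1.2-fold and 957 at 0.01. The cause was not tested.

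Named genes were followed through the other settings, not through the 1.2-fold test or the adjusted p of 0.01. Of 140 named genes called against AEF231, 135 were called in every one of those other settings that tested them, and 0 changed sign. The exceptions were hsp-4, dgk-1, aex-6, skr-9 and skr-13. The calls of phat-4 and fem-3, given above, were not part of this count. Against AEF373 all 24 named genes were called in each of these settings, and against AEF276 28 of 29, with col-129 lost without the batch term. Small uncalled changes took either sign: flp-10 was 0.0167 without the batch term and -0.154 to 0.111 without 1 library, egl-6 was -0.0600 and -0.00832 to 0.148, and gcy-31 was -0.124 to 0.271 without 1 library. myo-3 was called in batch 1 alone, with no filter and with only the strains compared.

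Replicate numbers did not mark pairs: the deviations of same-numbered AEF149 and AEF231 libraries correlated at -0.201 to 0.238. A replicate block gave 827 higher and 1368 lower genes, and of the named genes it lost hsp-4 and skr-13. The permutation test of flp-17 gave the same p with pseudocounts of 0.1 and 2 CPM. With windows of 0.5 Mb the highest share called was 41.98% (chromosome IV), and with 2 Mb 29.4% (chromosome X). With limits of at most 3 and at least 20 counts, 3 genes were read in AEF149 and not in AEF231, and 0 the other way. The limits covered these 2 strains alone. In AEF373, C18H7.1 had 1 to 21 counts, hsp-16.41 had 1 to 17 and phat-5 had 4 to 72. Depth limits genes of few counts, such as gcy-31 and the fbxb and fbxc genes.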

Other observations

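Other gene groups were also counted between AEF149 and AEF231, where 6.51% of all genes were higher and 11% lower. Of 19 tested genes associated with DAF-16, the FOXO factor of insulin signalling, 5 were higher and 3 lower (26.3% and 15.8%). In batch 1 alone 1 was lower. Of 26 epidermal antimicrobial peptide genes, 2 were higher and 3 lower (7.69% and 11.5%), near the shares of all genes. Cytochromes P450 gave 3 higher and 2 lower of 49, with 1 lower without AEF231 replicate 1 or AEF149 replicate 5, which is 6.12% higher and 4.08% lower. Nuclear hormone receptors, an expanded family of transcription factors in nematodes, gave 11 higher and 6 lower of 165, or 6.67% and 3.64%, so that the higher shares of both families were near that of all genes. Their 11 became 3 without AEF149 replicate 3, 7 without AEF149 replicate 2 or 4 or AEF231 replicate 3, and 6 without AEF231 replicate 4. The 6 lower became 3 without AEF149 replicate 3. Tested against a 1.2-fold change, the 11 became 0 and the 6 became 1. Chaperones and other genes of mitochondrial stress gave 0 higher and 4 lower of 12, or 33.3% lower. Those 4 became 1 without AEF231 replicate 5 or in batch 1 alone, and 2 without AEF231 replicate 4 or AEF149 replicate 1, 2 or 4.

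Of 18 Argonaute genes, which bind small RNAs, 4 were lower (22.2%) and 0 higher. The 4 became 2 in batch 1 alone or without AEF231 replicate 4 or 5 or AEF149 replicate 4. Of 49 abu and pqn genes, which encode glutamine- and asparagine-rich proteins, 8 were higher and 2 lower (16.3% and 4.08%). The 8 became 2 without AEF231 replicate 3, 3 without AEF149 replicate 2, 4 without AEF231 replicate 2 and 5 without AEF149 replicate 4. They became 0 when tested against a 1.2-fold change.

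The summed level of 6 oocyte markers was 7587 to 8332 CPM in AEF149 and 7225 to 8448 CPM in AEF231, with 0 of 6 called. Of 6 early embryo markers only 2 were tested, and 1 of them was called lower. The 2 summed to 1.13 to 3.86 CPM in AEF149 and 3.04 to 5.93 CPM in AEF231, and pes-10 held 67.3% of these counts. Among the markers outside this sum, med-1 was at 0 in every AEF149 library, and med-1 and med-2 in every AEF231 library. Coelomocyte markers summed to 12.4 to 15.4 CPM in AEF149 and 11.11 to 15.7 CPM in AEF231, with 0 of 3 called.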
